A study of Rattus norvegicus with 24 samples.

Results

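The array probe sets that carry no gene symbol in the annotation table used here were described in the kidney of Dahl salt-sensitive rats and of congenic substrains. A member was a non-control probe set of either array with an empty symbol and outside a pair left out by name. It was selected on its measured signal, since its mean over the 12 RNA pools had to lie at or above the 30th percentile of its array. Of 31142 non-control probe sets, 10383 had no symbol and 6379 were members, 1537 on the array RAE230A and 4842 on the array RAE230B. The set holds 6376 distinct probe set names, because 3 were on both arrays. A missing symbol means that the probe set is unnamed here, not that it reads no gene, and 2 members on RAE230B, 1367495_at and 1367521_at, are listed under Pfdn4 and Edc3 in the table of the other array.

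The groups were male rats of the inbred strain SS/jr (S) and of its congenic substrains ET3x1 and ET3x2. Rats of all 3 groups ate a diet with 0.4% NaCl up to an age of 39 to 41 days and one with 2% NaCl during the next 28 days, and were 67 to 69 days old at sampling. Total RNA of left kidneys was pooled from 2 rats per pool in S (pools A to D) and from 3 rats per pool in ET3x1 (pools E to H) and ET3x2 (pools I to L). Each of the 12 pools, made from 32 rats in all, was hybridised to both arrays, and the pool was the replicate (n = 4 per strain). Salt-resistant controls and rats kept on the low-salt diet were not analysed here, so every difference is between strains on 1 diet. Pool size goes with strain, and a pool of 3 rats averages over more animals than a pool of 2. In whole kidney a change in the number of cells of a type cannot be told apart from a change in RNA per cell.

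An Affymetrix probe set is a group of short oligonucleotides that together read the 3′ part of one transcript or of a cluster of expressed sequence tags. Clusters made from tags alone often have no assigned gene, because the tag may lie in an untranslated region beyond the annotated end of a gene, in an intron, or in a noncoding RNA. The Dahl S rat develops high blood pressure and renal injury when fed salt, and congenic substrains carry a piece of a salt-resistant strain's genome on the S background.

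Kidney markers gave strong signals in every pool. Of 8 kidney markers 7 were measured and all 7 lay above the level filter, with list means per pool of 12.96 to 13.2 in S, 12.98 to 13.09 in ET3x1 and 13.01 to 13.07 in ET3x2. Of the lists for other tissues and cells, both blood markers lay above the filter (list means per pool of 11.41 to 12), as did 2 of 3 muscle markers and 1 marker each of the fat, T cell and myeloid lists, and none of the 2 measured adrenal and 2 measured liver markers. None of those above the filter was called by limma in any contrast, the smallest adjusted p being 0.230 for Alas2, an enzyme of haem synthesis in red cell precursors. Of the B and plasma cell list 2 markers were measured. Jchain, which links secreted IgA and IgM, averaged 8.63 in S, 10.35 in ET3x1 and 9.85 in ET3x2 and was called in both contrasts with S, while Cd79b, part of the B cell receptor, averaged 7.07, 7.09 and 7.17, under the filter. The list means per pool of 7.80 to 7.96 in S, 8.36 to 8.88 in ET3x1 and 8.43 to 8.72 in ET3x2 thus moved with Jchain, and its part in the results for probe sets without a symbol was not tested. The actin 5′ minus 3′ control signal, which falls when RNA is less complete, was highest in pools A, B and J, at −1.27, −1.27 and −1.14 on RAE230A against −2.10 to −1.66 in the other 9 pools, and counts of calls are given with and without these 3 pools.

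Lack of a symbol was far more common on RAE230B, where it applied to 7612 probe sets (49.8%), than on RAE230A, where it applied to 2771 (17.5%). Fewer of them reached the filter level of 7.52 on RAE230A and 6.85 on RAE230B: 55.5% and 63.6%, against 72.9% and 76.4% of probe sets with 1 symbol. The ending of a probe set's name tells how specific its oligonucleotides are. The plain ending _at marks a set that matches 1 target, and it was held by 97.1% and 98.3% of all probe sets without a symbol on RAE230A and RAE230B, against 92.7% and 96.0% of those with 1 symbol. The ending _a_at, for sets that match several transcripts of 1 gene, was held by 1.77% on RAE230A against 5.82% of those with 1 symbol.

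Members had lower signals than probe sets with 1 symbol that passed the same filter. Their median was 8.83 against 9.36 on RAE230A and 7.92 against 8.26 on RAE230B (log2 signal, mean of 12 pools). Signals over 10 were held by 20.1% of members against 32.6% on RAE230A, and by 3.06% against 6.84% on RAE230B. Because the level chose the members, these values are a description without a test. At the filter's edge on RAE230A, 1374371_at and 1387847_at lay just inside and 1382952_at and 1385885_at just outside, all near 7.52. On RAE230B the edge lay between 1380425_at and 1384631_at, inside, and 1384071_at and 1392606_at, outside, all near 6.85.

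**Figure D1:**
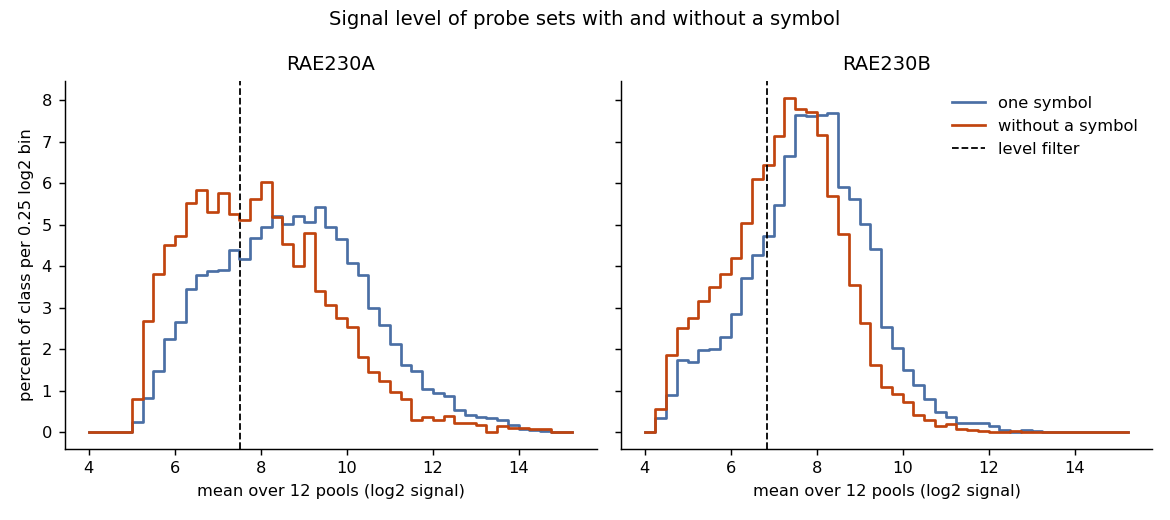
Distribution of the mean signal over 12 pools (x axis, log2) of all non-control probe sets without a symbol and with 1 symbol, as the percent of each class per bin of 0.25 (y axis), on RAE230A (left) and RAE230B (right). The dashed line is the level filter, and the class without a symbol lies further to the left on both arrays, with 55.5% and 63.6% of it at or above the line.

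Some members gave signals among the strongest on the arrays. Signals over 12 were scarcer among members than among probe sets with 1 symbol, of which 5.62% exceeded 12 on RAE230A and 0.381% on RAE230B. On RAE230A 49 members (3.19%) exceeded 12, led by 1375651_at, whose signal was 14.62, 14.86, 14.67 and 14.74 in the S pools, 14.68, 14.78, 14.73 and 14.75 in the ET3x1 pools and 14.58, 14.73, 14.71 and 14.75 in the ET3x2 pools. The 3 strains overlapped entirely there, and the ranges were narrow. Next came 1388159_at, 1386852_x_at, 1370299_at and 1375340_at, whose strain means lay between 14.11 and 14.52 and which were called in no contrast (largest difference 0.13 in 1370299_at, ET3x2 above ET3x1, adjusted p = 0.391). On RAE230B only 3 members (0.062%) exceeded 12. The highest, 1383111_at, averaged 12.54 ± 0.13 in S, 12.73 ± 0.11 in ET3x1 and 12.76 ± 0.11 in ET3x2 (SD, n = 4). It was followed by 1398713_at, 1377646_at, 1381428_a_at and 1397185_at. In the last of these the S pools read 10.96, 10.96, 11.59 and 11.83, the ET3x1 pools 12.16, 12.08, 12.56 and 12.32 and the ET3x2 pools 11.96, 11.31, 11.75 and 12.27. All ET3x1 pools lay above all S pools, with a difference of 0.95 that did not pass (adjusted p = 0.0854), and ET3x2 overlapped both. The 3 lowest of its 12 pools were A, B and J, and its correlation with the actin ratio was −0.71; the part of RNA completeness was not tested.

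The spread between pools of one strain was small. Its median over members, as the standard deviation pooled over the 3 strains, was 0.130 on RAE230A and 0.106 on RAE230B, against 0.135 and 0.119 for probe sets with 1 symbol (log2). By strain, the members' median SD was 0.136 in S, 0.115 in ET3x1 and 0.102 in ET3x2 on RAE230A, and 0.118, 0.0930 and 0.0782 on RAE230B. It was thus highest in S on both arrays, where pools held 2 rats, and strain and pool size cannot be told apart. Probe sets with 1 symbol had the same order, at 0.139, 0.123 and 0.106 on RAE230A and 0.127, 0.107 and 0.0874 on RAE230B. Within bands of equal level the members' median spread was lower than that of probe sets with 1 symbol in all 5 bands on RAE230B, for example 0.103 against 0.118 between 8 and 9. On RAE230A it was lower in 4 of 5 bands, the exception being 10 to 11, at 0.1412 against 0.1405. The difference on RAE230A, −0.0057 over all members, shrank to −0.0010 after quantile normalization and to −0.00042 without pool F.

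**Figure D2:**
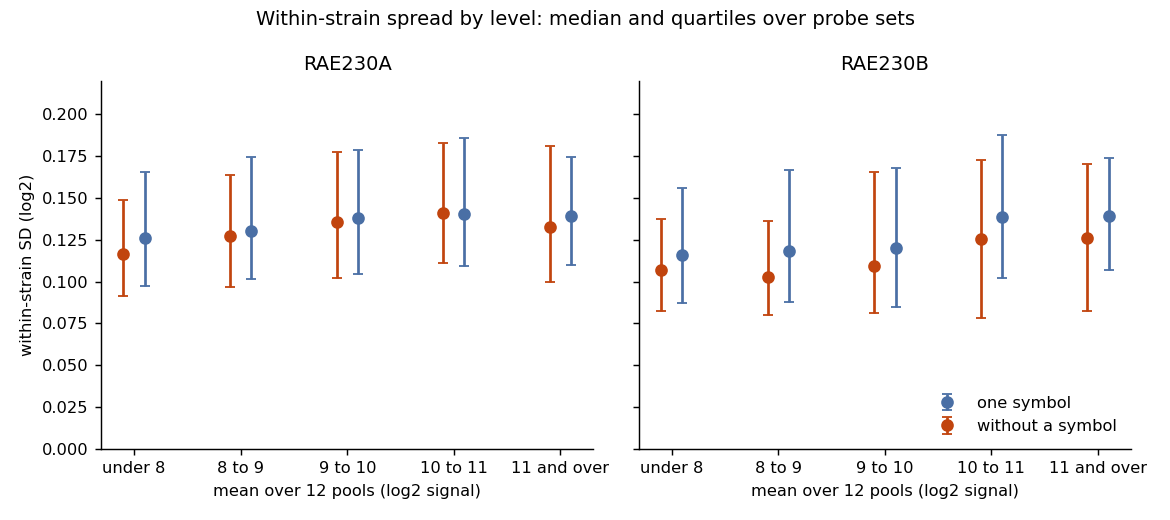
Within-strain SD (y axis, log2) in 5 bands of mean signal (x axis, log2) for members and for probe sets with 1 symbol, on RAE230A (left) and RAE230B (right). Points are medians over probe sets and bars run from the first to the third quartile. Between 8 and 9 on RAE230B the medians are 0.103 and 0.118.

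Few members spread widely between pools of one strain. A within-strain SD over 0.5 was found in 6 members on RAE230A (0.390%) and 11 on RAE230B (0.227%), against 0.504% and 0.554% of probe sets with 1 symbol. Pools A, B and J were the 3 highest of the 12 in 4 of these 6 and in 11 of these 11 members, against 68.1% and 90.6% of the 47 and 32 probe sets with 1 symbol that spread as widely. Among the 100 members with the largest SD per array they were highest in 14 and 34 and lowest in 18 and 15, where probe sets with 1 symbol had them highest in 58 and 81. Over all members the 3 pools were highest in 3.32% and 3.00%, and over all probe sets with 1 symbol in 5.70% and 8.86%. A correlation with the actin ratio beyond 0.7 in size, over 12 pools that share strain and array, was found in 7.03% of members on RAE230A and 9.19% on RAE230B, against 11.1% and 16.6% with 1 symbol.

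The widest was 1371108_a_at, with a within-strain SD of 1.15. It read 13.03, 13.42, 11.12 and 10.44 in S, 10.98, 11.66, 10.45 and 10.20 in ET3x1, and 11.40, 13.28, 11.16 and 10.47 in ET3x2. Pools A, B and J stood at 13.03 or higher and every other pool at 11.66 or lower, so the strains overlapped. In 1380142_at the spread came mostly from 2 low pools, since it read 7.33 in S pool C and 8.51 in S pool D and between 9.23 and 10.58 in the other 10 pools. Its 3 highest pools were also J, B and A, at 10.58, 10.23 and 9.99, although A barely passed ET3x2 pool L at 9.99, and its correlation with the actin ratio was 0.51. On RAE230B the widest, 1397164_at, read 11.03, 11.41, 10.29 and 9.35 in S, 9.80, 9.91, 9.12 and 9.99 in ET3x1 and 8.93, 10.54, 9.18 and 9.14 in ET3x2, again with A, B and J highest. The same 3 pools were highest in 1394427_at, 1382544_at, 1378415_at and 1384157_at on RAE230B and in 1385704_at and 1369452_a_at on RAE230A. None of these 9 members was called in any contrast, the smallest adjusted p being 0.338 for 1385704_at in ET3x1 against S. The part of RNA completeness in these signals was not tested.

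**Figure D3:**
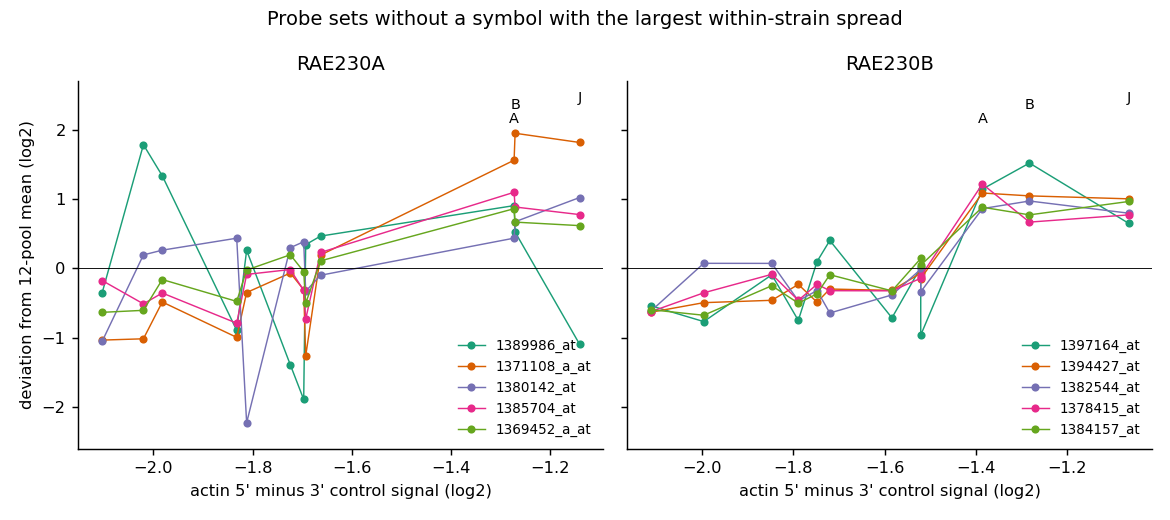
Deviation of each pool from the 12-pool mean (y axis, log2) against the pool's actin 5′ minus 3′ control signal (x axis, log2) for the 5 members with the largest within-strain SD on RAE230A (left) and on RAE230B (right); each line is 1 probe set. Pools A, B and J, marked by letter, lie at the right and are the highest pools in all 5 members on RAE230B and in 4 of 5 on RAE230A, the exception being 1389986_at; in 1380142_at S pools C and D lie far below the rest.

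Strain differences were tested with limma on all 21799 probe sets of both arrays that passed the filter, and a probe set was called at an adjusted p under 0.05. Over all contrasts 104 of the 6379 members were called, 36 of them in 2 or more. Matching counts over all probe sets tested are not given for these, so they show no trait of the members. Shares are set side by side below for each contrast. Most members hardly differed. The median size of their difference was 0.06 where ET3x1 was set against S, and 0.07 for ET3x2 with either other strain (log2), while it was 0.08 in each contrast over all probe sets tested. The 3 contrasts share pools in pairs, so that their values stand side by side below and are not independent. Whether the members' share of calls differs from that of named probe sets was not tested, because probe sets are not replicates and several may read 1 transcript.

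In ET3x1 against S, 22 members were called and all 22 were higher in ET3x1, by 0.43 to 1.39 (median 0.75, log2). This is 0.345% of members, where 0.44% of all probe sets tested were called, 0.431% higher and 0.00917% lower, and 0.457% of those with 1 symbol. By limma no member was called lower, though 185 were lower and 446 higher at an unadjusted p under 0.05, and other settings called up to 4 lower. On RAE230A 7 members (0.455%) were called against 0.140% of probe sets with 1 symbol, and on RAE230B 15 (0.310%) against 0.969%. The pools of the 2 strains did not overlap in 371 members (5.82%), against 6.4% of all tested.

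The largest rise was in 1370967_at. It read 7.67, 7.34, 8.10 and 7.96 in S, 9.19, 8.92, 8.99 and 9.52 in ET3x1 and 8.50, 8.48, 8.64 and 8.78 in ET3x2. All ET3x1 pools lay above all other pools, and the ET3x2 pools above all S pools. ET3x1 was 2.62-fold higher than S (log2 difference 1.39, SE 0.156, adjusted p = 0.000629), while ET3x2 was not called against either. Its named neighbours in pattern were Ccl5, a chemokine that attracts T cells, with a Pearson r of 0.93 over the 12 pools, and Plpp6, a lipid phosphatase, with an r of 0.87. These neighbours share the pools and the array with the member, and no p is given.

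Some rises were tight rather than large. 1381244_at read 8.70, 8.71, 8.85 and 8.60 in S, 9.44, 9.18, 9.34 and 9.44 in ET3x1 and 8.82, 8.84, 8.90 and 8.83 in ET3x2, and differed by 0.63 between ET3x1 and S (SE 0.0718, adjusted p = 0.000847). 1381916_at averaged 7.74 ± 0.03 in S, 8.17 ± 0.06 in ET3x1 and 7.85 ± 0.10 in ET3x2 (SD, n = 4), a rise of 0.43 (adjusted p = 0.0043). In both, no ET3x1 pool overlapped with any pool of the other strains.

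Of the members, 1 was called higher in both substrains than in S. 1378249_x_at, whose ending _x_at marks probes that can also bind other transcripts, read 10.68, 10.86, 10.81 and 10.97 in S, 11.27, 11.36, 11.43 and 11.44 in ET3x1 and 11.50, 11.35, 11.40 and 11.25 in ET3x2. No S pool reached either substrain, and the substrains overlapped with each other. The difference was 0.55 for ET3x1 (SE 0.079, adjusted p = 0.00611) and 0.55 for ET3x2 (adjusted p = 0.0104), and the call for ET3x2 was lost without pools A, B and J (adjusted p = 0.118). 1384218_at had means of 9.18, 10.03 and 10.02 in S, ET3x1 and ET3x2, and 1370394_at of 7.94, 8.89 and 8.61. Both were called only for ET3x1 (adjusted p = 0.0325 and 0.0261). These calls were lost in 9 and 7 alternative settings in that order, among them the fit without pools A, B and J. In 1384218_at ET3x2 also lay above all S pools, by 0.84 (adjusted p = 0.0523), while in 1370394_at it overlapped with S (0.67, adjusted p = 0.141). 1379058_at was called only for ET3x1 (0.88, adjusted p = 0.0215), and its ET3x2 pools also lay above all S pools. Its call was lost in 5 alternative settings, namely without pool C, D, E or H and in the fit of S and ET3x1 alone.

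In a further group ET3x1 stood above both other strains. 1379555_at read 9.55, 9.06, 8.74 and 8.26 in S, 10.37, 10.03, 10.63 and 10.01 in ET3x1 and 8.86, 9.05, 8.72 and 8.70 in ET3x2. S and ET3x2 overlapped and ET3x1 lay above every pool of both, 2.56-fold over S (log2 difference 1.36, SE 0.220, adjusted p = 0.0115) and with ET3x2 lower than ET3x1 by 1.43 on the log2 scale (−1.43, adjusted p = 0.00386). Its call against S was lost without pool E and in the fit of S and ET3x1 alone. The same order of strains was seen in 1373053_at, with means of 10.18, 11.28 and 9.98 in S, ET3x1 and ET3x2 (difference from S 1.10, adjusted p = 0.00107). Its nearest named patterns were Cxxc5, a zinc finger protein (r 0.91), and Igfbp3, which binds insulin-like growth factors (r 0.89). 1391499_at (0.87 above S), 1375650_at (0.76), 1383179_at (0.75) and 1390983_at (0.64) were also called both against S and between the substrains, as log2 differences. Their calls against S were less stable. In that order they were lost in 3, 8, 6 and 5 alternative settings, each without pool E among others. Between the substrains the call of 1390983_at was lost in 6 settings and that of 1375650_at in 1, without pool K.

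The call count for ET3x1 against S rested partly on single pools. It was 10 without pool E and 22 without pools A, B and J, of which 12 were among the original 22. Over all probe sets tested the count of 96 was 41 without pool E and 117 without pools A, B and J.

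In ET3x2 against S, 34 members were called, 32 lower in ET3x2 by 0.36 to 1.72 and 2 higher by 0.35 and 0.55 (log2). This is 0.533% of members, where 0.344% of all probe sets tested were called, 0.0642% higher and 0.28% lower, and 0.258% of those with 1 symbol. Of the 34, 32 were on RAE230B (0.661% of members there, against 0.588% with 1 symbol) and 2 on RAE230A (0.130% against 0.0537%). Pools of the strains did not overlap in 378 members (5.93%), against 5.95% of all tested. Within the 32 lower members, K was the lowest ET3x2 pool in 22. No such count is given for other probe sets, so it cannot be called particular to these members.

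The largest fall was in 1376742_at. It read 10.19, 10.13, 9.81 and 9.32 in S, 9.82, 9.27, 9.81 and 9.38 in ET3x1 and 7.96, 8.56, 7.65 and 8.40 in ET3x2. All ET3x2 pools lay below all others, and S and ET3x1 overlapped. ET3x2 was 3.29-fold lower than S (log2 difference −1.72, SE 0.215, adjusted p = 0.00294) and 2.69-fold lower than ET3x1 (−1.43, adjusted p = 0.00532). Nearest in pattern were Tor1aip1, a protein of the inner nuclear membrane (r 0.94), and Ccnt2, a cyclin of the transcription elongation machinery (r 0.94).

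Members with the same order of strains, ET3x2 below an overlapping S and ET3x1, followed with smaller differences. 1384692_at read 10.38, 9.97, 10.37 and 9.95 in S, 10.34, 9.91, 10.22 and 10.03 in ET3x1 and 9.04, 9.39, 8.91 and 9.40 in ET3x2 (−0.98 from S, adjusted p = 0.0104). 1394585_at read 9.28, 9.34, 9.25 and 9.01 in S, 9.38, 8.95, 9.18 and 8.96 in ET3x1 and 8.03, 8.17, 8.19 and 8.58 in ET3x2 (−0.98, adjusted p = 0.00612). In both, every ET3x2 pool lay below every other pool. Without pools A, B and J their calls against S were lost (adjusted p = 0.0501 and 0.103), while those against ET3x1 held in every setting. The nearest named patterns of 1394585_at were Kmt2c, a histone methyltransferase (r 0.93), and Slc5a3, the sodium-coupled myo-inositol transporter (r 0.93). 1379398_at (−0.81), 1378413_at (−0.75), 1378347_at (−0.64), 1391438_at (−0.65), 1381445_at (−0.57), 1382633_at (−0.52) and 1394400_at (−0.43) were called against S and against ET3x1. The calls of these 7 against S were lost in 6, 6, 5, 7, 6, 4 and 1 alternative settings in that order, and those against ET3x1 were kept in all but 1, that of 1378413_at without pool E. A further group was called against both strains: 1377551_at, 1378055_at, 1379148_at, 1379866_at, 1392026_at, 1392177_at, 1396148_at, 1396528_at, 1397531_at and 1398524_at. Their calls against S were lost in 8, 12, 14, 2, 14, 13, 7, 9, 14 and 7 settings in that order. Those against ET3x1 were lost in 0, 9, 9, 5, 5, 8, 5, 7, 0 and 0.

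For 2 of the 32 lower members, 1381471_at and 1380763_at, the ET3x2 mean lay under the filter level, where the background is unknown, and no fold is given. 1381471_at read 7.67, 7.63, 7.49 and 7.49 in S, 7.28, 6.80, 7.31 and 7.45 in ET3x1 and 6.56, 6.71, 6.55 and 6.77 in ET3x2 (adjusted p against S = 0.00612, and 0.0764 without pools A, B and J). Every ET3x2 pool lay below every other pool. Its nearest named patterns were Usp33, a deubiquitinating enzyme (r 0.92), and Sema6a, a semaphorin (r 0.90).

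The 2 members higher in ET3x2 than in S were 1378249_x_at, given above, and 1381937_at, with means of 8.64, 8.92 and 8.99 in S, ET3x1 and ET3x2 (difference 0.35, adjusted p = 0.0486). 1381937_at lost its call in 17 of the alternative settings.

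This contrast depended most on which pools entered. The count of 34 was 5 without pools A, B and J, 7 without A, C, I or K, 17 without L, 19 without E, 22 without B and 64 without D. Over all probe sets tested the count moved likewise, from 75 to 17 without pools A, B and J. It was 19 to 21 without A, C, I or K, and 167 without D. Of the 34, 4 were called without A, B and J.

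In ET3x2 against ET3x1, 85 members were called, 83 lower in ET3x2 and 2 higher. This is 1.33% of members, where 1.48% of all probe sets tested were called, 0.0963% higher and 1.39% lower, and 1.56% of those with 1 symbol. The 83 fell by 0.28 to 2.30 (median 0.61, log2), 13 of them by more than 1. In 6 of the 83 the ET3x2 mean lay under the filter level, where the background is unknown. On RAE230A 19 members were called (1.24%, against 1.02% with 1 symbol) and on RAE230B 66 (1.36%, against 2.42%). Pools of the substrains did not overlap in 550 members (8.62%), against 9.15% of all tested.

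The share called differed with signal level. On RAE230B it was 0.652% of members under 8, 1.49% between 8 and 9, 3.80% between 9 and 10, 5% between 10 and 11 and 3.57% over 11, where it rests on 1 of 28 members. Probe sets with 1 symbol had 1.88%, 2.31%, 3.22% and 5.42% in the first 4 bands, and over 11 limma called 0 of 100 (7 at an unadjusted p under 0.05). On RAE230A the members' shares were 0.343%, 0.547%, 2.58%, 1.04% and 2.59% in the 5 bands, with no steady order. They rest on 1, 3, 10, 2 and 3 called members. Probe sets with 1 symbol had 0.545%, 0.805%, 1.48%, 1.34% and 0.530% there.

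**Figure D4:**
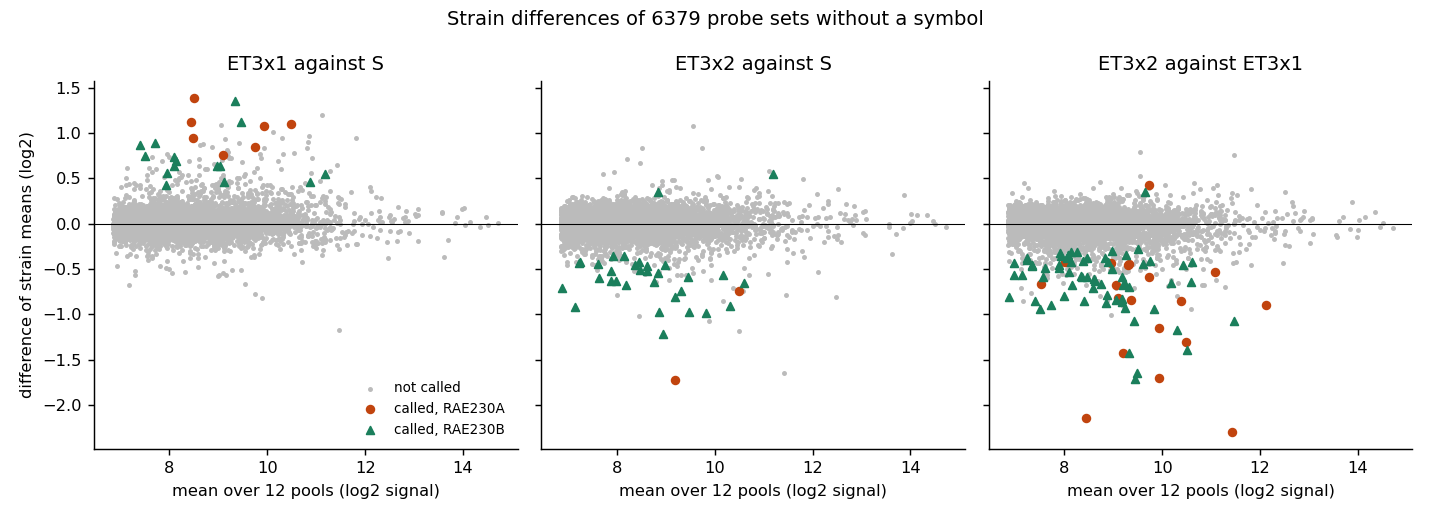
Difference of strain means (y axis, log2) against the mean signal over 12 pools (x axis, log2) for each of the 6379 members in the 3 contrasts. Grey points were not called, and coloured circles (RAE230A) and triangles (RAE230B) were called at an adjusted p under 0.05: 22, 34 and 85 from left to right. The called points lie above 0 in the left panel and mostly below 0 in the other panels.

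The largest fall was in 1389986_at, which was also among the most variable members, with a within-strain SD of 0.561. It read 12.33, 11.94, 11.68 and 11.07 in S, 12.75, 11.89, 13.20 and 11.76 in ET3x1 and 10.03, 10.33, 9.53 and 10.53 in ET3x2. ET3x2 lay below every other pool, and S and ET3x1 overlapped. ET3x2 was 4.91-fold lower than ET3x1 (log2 difference −2.30, SE 0.318, adjusted p = 0.00302), while the difference of −1.65 from S did not pass (adjusted p = 0.0558).

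The smallest p belonged to 1377774_at. It read 9.30, 8.93, 9.42 and 9.46 in S, 10.48, 10.46, 10.36 and 10.30 in ET3x1 and 8.95, 8.65, 8.71 and 8.44 in ET3x2. ET3x1 lay above all other pools and ET3x2 overlapped with S only in its pool I. It was called in all 3 contrasts: ET3x1 was 2.18-fold over S (1.12, adjusted p = 0.000594), ET3x2 was 3.28-fold under ET3x1 (−1.71, SE 0.120, adjusted p = 2.16e-05) and ET3x2 was below S by −0.59 (adjusted p = 0.0486). The call against S was lost in 16 alternative settings, and the others were kept in all. Nearest in pattern were Wasl, an activator of actin branching (r 0.94), and Eml4, a microtubule-associated protein (r 0.94).

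In several members the strains stood in the order ET3x1, S, ET3x2. 1376685_at read 8.49, 8.40, 8.86 and 7.91 in S, 9.71, 9.41, 9.87 and 9.18 in ET3x1 and 7.78, 7.27, 7.01 and 7.53 in ET3x2, with no overlap between any of the strains. The ET3x2 mean of 7.40 lay under the filter, so no fold is given (adjusted p for ET3x2 against ET3x1 = 0.00016). ET3x2 was not called against S (adjusted p = 0.0592), and the call of ET3x1 against S (adjusted p = 0.0325) was lost in 9 alternative settings. Its nearest named patterns were Mycbp2, a ubiquitin ligase (r 0.97), and Atxn7l3b (r 0.97). 1390436_at had means of 9.78, 10.86 and 9.16 in S, ET3x1 and ET3x2, with ET3x2 3.25-fold under ET3x1 (−1.70, SE 0.196, adjusted p = 0.000896). There ET3x2 was not called against S (adjusted p = 0.263), and the call of ET3x1 against S (adjusted p = 0.037) was lost in 11 settings. 1383615_a_at had means of 9.58, 10.25 and 8.61, with ET3x2 3.13-fold under ET3x1 (−1.64, adjusted p = 0.000144) and 1.96-fold under S (−0.97, adjusted p = 0.02), the last call being lost without pool A, C, I or K and without A, B and J together. For this member ET3x1 was not called against S (adjusted p = 0.0991).

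Others among the largest falls were 1381100_at (2.62-fold, adjusted p = 0.0122), lost without pool E or pool K, and 1392653_at (2.25-fold, adjusted p = 0.00168). The 2 members higher in ET3x2 than in ET3x1 differed little. 1383595_at averaged 9.62 ± 0.06 in S, 9.49 ± 0.08 in ET3x1 and 9.85 ± 0.11 in ET3x2 (SD, n = 4; difference 0.36, SE 0.0673, adjusted p = 0.0136), with every ET3x2 pool above every other pool. 1376075_at had means of 9.84, 9.48 and 9.90 (0.43, adjusted p = 0.0478), and its correlation with the actin ratio over the 12 pools was 0.71. That call was lost in 12 of 23 alternative settings, among them the fits without pools A, B and J and without any one of 10 single pools, and it held with the actin ratio as a covariate.

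**Figure D5:**
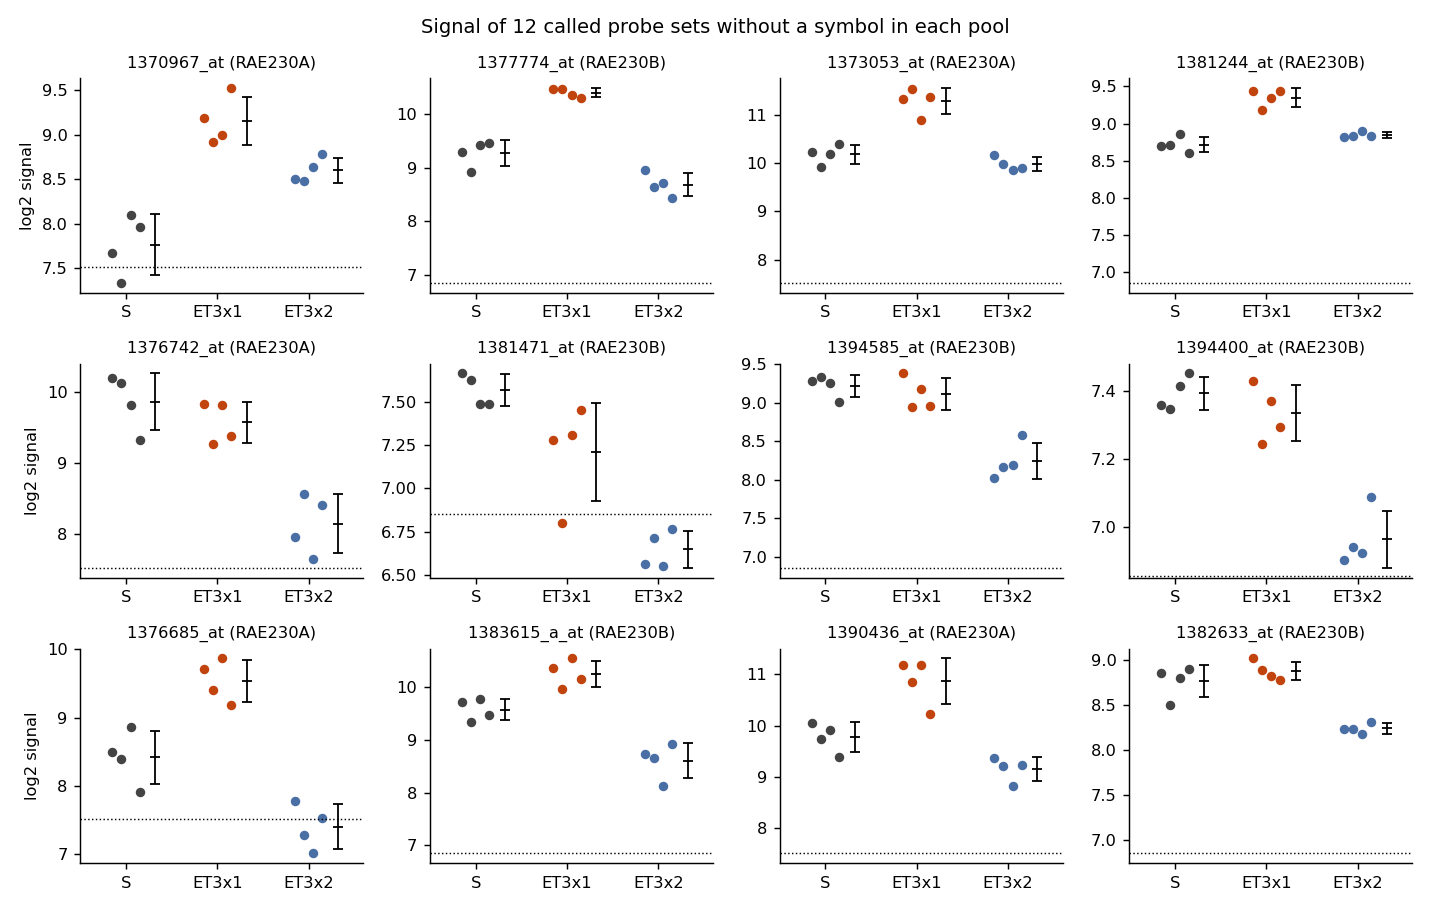
Signal (y axis, log2) of 12 called members in each pool of S, ET3x1 and ET3x2 (x axis); dots are pools in alphabetical order, black marks give the mean and SD of 4 pools, and the dotted line is the level filter of the array. Each row shows the 4 members with the smallest p in one contrast, each member once: ET3x1 and S (top), ET3x2 and S (middle), ET3x2 and ET3x1 (bottom). In the top row the ET3x1 pools lie above all S pools, and in the other rows the ET3x2 pools lie below all pools of the strain they were compared with.

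Among the 83 lower members, K was the lowest ET3x2 pool in 48, and the highest ET3x1 pool was G in 32, E in 29, H in 14 and F in 8. These counts too lack a match in other probe sets. The count of 85 was 38 without pool K, 42 without pool E and 48 without pool I, and 93 without pools A, B and J, of which 69 were among the original 85. Over all probe sets tested the count of 323 likewise became 133, 146, 204 and 337 in these settings, in that order. In the called members the correlation with the actin ratio leaned to one side. It lay between −0.58 and −0.03 (median −0.34) for the 22 of ET3x1 against S, all of them negative, between −0.53 and 0.09 (median −0.31) for the 32 lower in ET3x2 than in S, and between −0.73 and 0.17 (median −0.32) for the 83, while its median over all members was −0.0015 on RAE230A and 0.0505 on RAE230B. The part of RNA completeness in these calls was not tested beyond the fits with the actin ratio as a covariate and without the 3 pools.

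The 3 members on both arrays give a check of the hybridisations, since the same pools were measured again. 1367489_at averaged 9.19 on RAE230A and 9.24 on RAE230B, 1367504_at 9.53 and 9.61, and 1367517_at 9.09 and 9.09. The pool values correlated across arrays with r of 0.71, 0.76 and 0.32 over 12 pools. Their strain differences were at most 0.13 in size (1367504_at on RAE230B, ET3x2 above ET3x1, adjusted p = 0.682), within the spread between pools.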

How the data were processed

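The authors deposited 1 value per probe set and pool for 24 arrays. The scale of the deposited values was taken as log2 from their range, and summarisation, background correction and normalization are not given in the sources used here. Per the labels, pooled total RNA was copied from an oligo(dT) primer and labelled with biotin. Symbols came from the platform annotation, and probe sets not listed there had none.

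The 57 control probe sets per array and probe sets under the 30th percentile of 12-pool means were left out. Linear models were fitted per array to all 12 pools with limma 3.58.1 in R 4.3.3 (lmFit, eBayes with a trended prior). P-values were two-sided and adjusted by Benjamini and Hochberg over all probe sets of an array within a contrast, and counts of both arrays were added. The fit was tested on simulated data. Figures used matplotlib 3.10.9. Arrays give no read depth, and their number limits the precision.

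Members and marker lists were chosen with earlier results of these data known. Named members were the 10 highest and 10 lowest called per contrast, those called in 2 or more contrasts, the 3 smallest p per contrast with their 2 nearest named patterns, and per array the 5 highest, the 5 most variable and the 2 nearest the filter. Counts of named calls cover all of these, and some are not described above. Alternatives were other normalizations, filters, priors, weights and adjustments, an actin covariate, and pools left out. Probe sequences were not used here.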

Additional observations from a re-analysis of the deposited data

Results flagged for a closer look

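Within a strain, 1 pool stood far from the other 3 in 11 of 210 groups of 4 pools of the named members (5.24%), and in 1153 of 19137 groups over all members (6.02%). Chance gives about 1 in 20. The test was Dixon's ratio of gap to range.

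Pool K of ET3x2 was the low one in 2 members called between the substrains: 1392653_at read 9.13 there against 9.74 to 9.84 in pools I, J and L, and 1381100_at read 9.21 against 9.75 to 9.84. In 1392653_at, S pool B was also apart, at 10.37 against 10.57 to 10.60. In 1378055_at, ET3x2 pool L read 8.06 against 7.85 to 7.88.

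Pool J of ET3x2 was the high one in 4 members, reading 7.98 in 1387847_at, 10.54 in 1397164_at, 8.19 in 1394427_at and 10.35 in 1382544_at. ET3x1 pool F read 7.11 in 1394427_at against 6.69 to 6.72 in the other ET3x1 pools. Among the strongest members, ET3x2 pool L read 12.92 in 1383111_at and ET3x1 pool G read 12.24 in 1377646_at.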

How the results depend on the processing

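No call of a named member turned its direction. Of the named calls, 6 of 16 in ET3x1 against S, 1 of 29 in ET3x2 against S (1376742_at) and 26 of 39 in ET3x2 against ET3x1 held under every alternative that tested them. Counts of called members (22, 34 and 85) fell furthest when pools were left out: ET3x2 against S had 5 without A, B and J, and leaving out single pools gave 10 to 27, 7 to 64 and 38 to 114. Over all probe sets tested, ET3x2 against S fell from 75 to 17 without A, B and J. With all pools kept, the members' counts were 40, 108 and 368 with array weights, 57, 131 and 131 with the actin covariate, and 12 and 19 in the contrasts with S in a fit of the compared strains alone. Without a filter the fit called 23 in ET3x2 against S. The median level difference from probe sets with 1 symbol, −0.53 on RAE230A and −0.34 on RAE230B, was −0.94 and −0.53 without the filter and −0.30 and −0.26 with a filter at the 50th percentile. The spread difference on RAE230A, −0.0057, was −0.0010 after quantile normalization, −0.0127 without the filter, −0.0021 with the stricter one, and −0.0087 to −0.00042 with 1 pool left out. On RAE230B, −0.0129 became −0.0098 after quantile normalization, −0.0102 without pools A, B and J, and −0.0140 to −0.0084 with 1 pool left out. The cause of these shifts was not tested. A choice of members by a match to RefSeq was not run, because no member has an identifier to match. No paired analysis was possible because the strains share no pool letters.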
